A study of Mus musculus with 6 samples.

Results

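The mouse carboxylesterases were followed in liver RNA-Seq of Mttp-IKO mice and their controls fed a methionine- and choline-deficient (MCD) diet. The 10 genes Ces1c, Ces1d, Ces1e, Ces1f, Ces1g, Ces2a, Ces2c, Ces2e, Ces3a and Ces3b were chosen by gene symbol, and all 10 were found among the 41388 genes counted. Every mouse carried floxed Mttp alleles and Villin Cre ER-T2 on a C57BL/6 background, so that tamoxifen deletes Mttp, which loads lipid onto apolipoprotein B, in the intestinal epithelium. Mttp-IKO mice had received tamoxifen at 50 μg per g body weight per day for 5 days, and the controls, labelled wild type, were littermates given vehicle. The mice were males, 12 to 16 weeks old when the diet began, which was 3 weeks after tamoxifen or vehicle. They ate the MCD diet for 3 weeks, and livers were taken after a fast of 4 h according to the labels. Each genotype was represented by 3 RNA pools. The study's methods give 3 to 4 mice a pool, and the labels give 12 livers without making clear whether per genotype or in all, so the number of mice behind a pool is uncertain. Because a pool averages its mice, the spread between pools understates the spread between mice. Since no control received tamoxifen, the drug and the loss of intestinal Mttp cannot be told apart.

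Carboxylesterases are serine hydrolases that split esters, amides and thioesters. In liver they are best known for hydrolysing drugs and for acting on stored triglyceride, cholesteryl ester and retinyl ester, and several sit in the lumen of the endoplasmic reticulum, held there by a carboxy-terminal signal of the His-X-Glu-Leu type. In the mouse the family has been duplicated into Ces1, Ces2 and Ces3 clusters, whose hepatic expression is known to respond to nuclear receptors such as HNF4A, FXR, PXR and CAR.

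On GRCm38 all 10 genes lay on chromosome 8 in 2 groups. The Ces1 members were on the minus strand, from Ces1c at chr8:93099015-93131283 through Ces1d at chr8:93166068-93197838, Ces1e at chr8:93201218-93229619 and Ces1f at chr8:93256236-93279747 to Ces1g at chr8:93302369-93337308. The Ces2 and Ces3 members were on the plus strand, with Ces2a at chr8:104734003-104741634, Ces2c at chr8:104847068-104854483, Ces2e at chr8:104926260-104934672, Ces3a at chr8:105048599-105058414 and Ces3b at chr8:105083753-105093929. Coding sequences shared 72.4% to 81.6% of aligned bases within Ces1, 82.2% to 83.6% within Ces2 and 95.3% between Ces3a and Ces3b, against 54.0% to 58.6% between subfamilies. Reads were counted only where they aligned uniquely, so copies as close as these can lose reads. The share of 50-base windows of the transcript that also occurred in a transcript of another gene was 42.2% for Ces2c, 30.9% for Ces3a, 26.1% for Ces3b, 22.2% for Ces2a and 17.0% for Ces1c, and 1.28% to 3.36% for the other 5 members. For Ces3a and Ces3b the shared windows were with each other, and the division of reads between these 2 genes is uncertain, as are the counts of Ces2c, which shared most with the pseudogene Ces2d-ps.

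The last 12 codons before the stop differ between the proteins that stay in the endoplasmic reticulum and the one known to be secreted into plasma, and are shown for that reason. The final 4 codons are in capitals, 5′ to 3′, read from GENCODE M21 transcripts.
Ces1c: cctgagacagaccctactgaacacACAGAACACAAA
Ces1d: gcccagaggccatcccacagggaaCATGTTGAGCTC
Ces1e: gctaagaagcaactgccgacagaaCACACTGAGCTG
Ces2e: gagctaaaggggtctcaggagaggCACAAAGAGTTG
Ces3a: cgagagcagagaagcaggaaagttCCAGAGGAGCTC
Ces3b: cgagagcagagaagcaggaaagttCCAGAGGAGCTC
Codons for His, any residue, Glu and Leu ended 7 of the 10 coding sequences. The exceptions were Ces1c, which codes for the plasma esterase, and the Ces3 pair, whose 36 bases were identical and whose final codons kept Glu and Leu but opened with CCA.

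Read depth was 25271585 to 36238734 reads on genes per pool. All 10 members passed the filter on low counts, with 173 to 56112 reads per pool. The livers matched their label, with Alb at 40131 to 132236 CPM, read counts scaled to library size with TMM factors. The summed level of the hepatocyte marker list was 80684 to 121301 CPM in control pools and 145838 to 201193 CPM in Mttp-IKO pools, although 0 of its 11 genes in the table passed the edgeR test. The stellate cell list ran the other way, at 882 to 1558 CPM in control and 476 to 556 CPM in Mttp-IKO, with 4 of 8 genes lower. Macrophage markers summed to 679 to 1165 CPM in control and 403 to 632 CPM in Mttp-IKO, with 1 of 8 lower. In whole liver a change in the number of cells of a type and a change in RNA per cell cannot be told apart. Muscle markers reached 602 CPM in control pool 2 and at most 74.1 CPM elsewhere. Mttp in liver, which Villin Cre is not meant to reach and which therefore cannot check the genotype labels, measured 90.4, 186 and 175 CPM in control pools, against 145, 129 and 161 CPM in Mttp-IKO pools 1 to 3. Its log2 fold change was -0.06 (adjusted P = 0.926).

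Ces2e was higher in Mttp-IKO liver, at about 2 times the control level, and was the only one of the 10 members to pass the test. In edgeR's quasi-likelihood test across 17287 genes with Benjamini-Hochberg adjustment at 0.05, 1 of 10 members was higher, against 0.920% of all genes tested. None was lower by edgeR, DESeq2 or limma-voom, which called 535 (3.09%), 1338 and 312 of all genes lower. Ces2e alone was under an unadjusted P of 0.05 in edgeR, against 3977 of all 17287 genes. Counted in either direction, 1 of 10 members was called against 4.01% of all genes. The median log2 fold change of the members was -0.25, and that of all genes tested was 0.0057. Pools of the 2 genotypes did not overlap for 1 of 10 members, Ces2e, and for 31.0% of all genes.

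**Figure D1:**
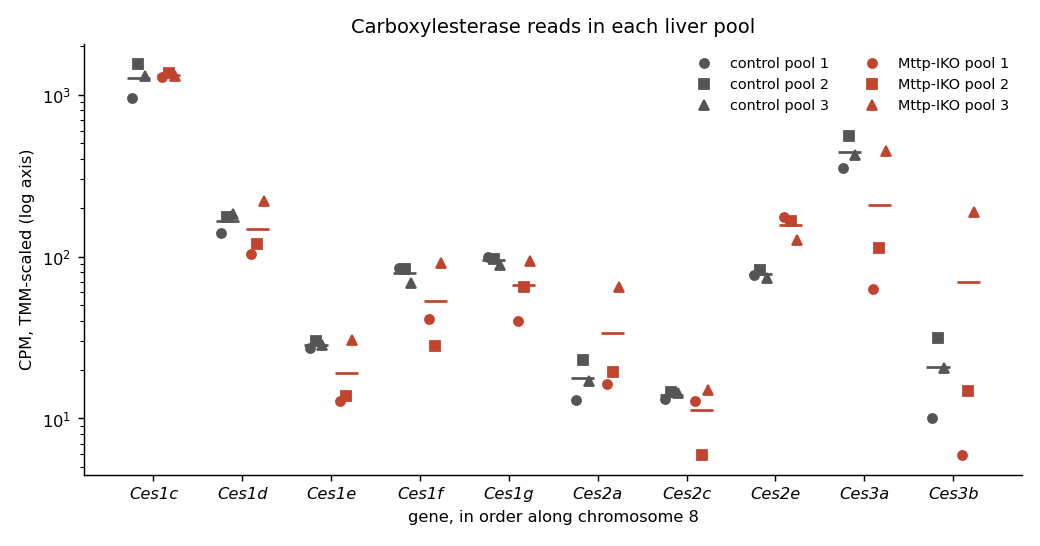
TMM-scaled read counts (CPM, log axis) of the 10 carboxylesterases in the 3 control pools (grey) and the 3 Mttp-IKO pools (red), with the mean of each genotype as a bar. The Ces2e points of the genotypes do not overlap, with control pools at 73.4 to 82.8 CPM and Mttp-IKO pools at 126 to 175 CPM, while for the other 9 genes the ranges of the genotypes overlap.

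Ces2e, a microsomal esterase of liver and small intestine, measured 77.0, 82.8 and 73.4 CPM in control pools 1, 2 and 3. In Mttp-IKO pools 1, 2 and 3 it measured 175, 166 and 126 CPM. All 3 Mttp-IKO pools were above all 3 control pools. The means were 77.7 ± 4.77 and 156 ± 25.9 CPM (SD, n = 3 pools each). This gave a log2 fold change of 1.003 ± 0.18 (SE), with a 95% interval of 0.60 to 1.41, and the edgeR adjusted P was 0.0288. The direction was the same without any single pool, with log2 fold changes of 0.91 to 1.14, but the call needed most of the pools. It was lost without control pool 1 (adjusted P = 0.133), control pool 3 (0.152), Mttp-IKO pool 1 (0.0718) or Mttp-IKO pool 2 (0.119). It was kept without control pool 2 (0.0491) or Mttp-IKO pool 3 (0.0103). The fits that lost it called 0.136%, 0.118%, 0.307% and 0.00% of all genes in that order, against 4.01% with all pools. The fits that kept it called 5.02% and 4.84%. The summed hepatocyte markers were also higher in every Mttp-IKO pool, and their part in the Ces2e difference was not tested.

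Its close relatives Ces2a and Ces2c did not separate by genotype. Ces2a, known as a target of PXR and CAR, measured 12.9, 23.1 and 17.0 CPM in control pools, against 16.4, 19.4 and 64.8 CPM in Mttp-IKO pools. Only Mttp-IKO pool 3 lay above the control range. The log2 fold change was 0.92 ± 0.51 (SE, 95% interval -0.25 to 2.09, adjusted P = 0.319), and without Mttp-IKO pool 3 it was 0.02. Ces2c, the acylcarnitine hydrolase described in mouse liver, measured 13.2, 14.6 and 14.3 CPM in control pools, against 12.7, 5.93 and 15.0 CPM in Mttp-IKO pools. Mttp-IKO pools 1 and 2 lay below the control range, pool 1 narrowly, and pool 3 lay narrowly above it. For Ces2c the log2 fold change was -0.32 ± 0.31 (SE, 95% interval -1.04 to 0.39, adjusted P = 0.572).

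The promoters of the 3 Ces2 members are shown because only Ces2e was called among these neighbours. The 3 genes were not tested against each other, and the Ces2a interval includes the Ces2e estimate. Each is the 250 bases before the start of the RefSeq gene on GRCm38.p6, plus strand, with motif matches in capitals. The windows are chr8:104926010-104926259 for Ces2e, chr8:104733753-104734002 for Ces2a and chr8:104846818-104847067 for Ces2c.
Ces2e: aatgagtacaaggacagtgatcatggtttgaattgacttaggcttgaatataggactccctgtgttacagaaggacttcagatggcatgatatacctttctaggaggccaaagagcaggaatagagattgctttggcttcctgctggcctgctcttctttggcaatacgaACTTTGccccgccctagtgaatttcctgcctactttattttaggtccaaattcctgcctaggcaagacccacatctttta
Ces2a: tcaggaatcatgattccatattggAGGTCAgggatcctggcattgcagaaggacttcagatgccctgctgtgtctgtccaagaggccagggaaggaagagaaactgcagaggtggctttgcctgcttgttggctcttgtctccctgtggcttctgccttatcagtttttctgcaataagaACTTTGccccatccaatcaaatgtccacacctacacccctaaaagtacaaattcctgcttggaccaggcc
Ces2c: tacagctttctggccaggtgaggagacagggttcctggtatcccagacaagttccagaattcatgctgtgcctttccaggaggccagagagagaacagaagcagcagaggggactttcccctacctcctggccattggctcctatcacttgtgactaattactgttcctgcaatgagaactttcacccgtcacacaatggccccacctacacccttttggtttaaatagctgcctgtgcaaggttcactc
Aligned over the window, Ces2a and Ces2c shared 64.6% of columns, Ces2a and Ces2e 53.2%, and Ces2c and Ces2e 51.2%. The letters CAAAGT, found in sites bound by HNF4A, were present on the minus strand, printed here as ACTTTG, at -80 from the start of Ces2e and at -70 from that of Ces2a. They were not in the Ces2c window and occurred in 12.6% of all 32851 promoters of this length, on either strand. AGGTCA, the core bound by many nuclear receptors, was found at -226 from the start of Ces2a and in 14.0% of all promoters. The other motifs searched on both strands, TATAAA (12.4% of all promoters), TGACNNNGC of the antioxidant response element (10.2%) and GTTAAT of HNF1 sites (6.43%), were not in these 3 windows, and no matches overlapped. Promoters of 7 of the 10 members were matched in RefSeq. Ces1d, Ces1f and Ces3a had no entry.

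Ces1d, Ces1f and Ces1g encode hydrolases of the endoplasmic reticulum that act on hepatic triglyceride, and Ces1d is the enzyme known as triacylglycerol hydrolase, which supplies lipid for lipoprotein assembly. Ces1d measured 141, 176 and 184 CPM in control pools, against 104, 120 and 221 CPM in Mttp-IKO pools. Mttp-IKO pools 1 and 2 lay below the control range and pool 3 above it. Ces1d had a log2 fold change of -0.17 ± 0.29 (SE, 95% interval -0.84 to 0.50, adjusted P = 0.769).

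Ces1f measured 84.8, 84.2 and 68.9 CPM in control pools, against 41.0, 28.0 and 91.4 CPM in Mttp-IKO pools, again with pools 1 and 2 below and pool 3 above. The log2 fold change was -0.57 ± 0.39 (SE, 95% interval -1.46 to 0.32, adjusted P = 0.416). Ces1g, whose product has been tied to hepatic lipid secretion, measured 99.1, 96.8 and 88.7 CPM in control pools, against 40.1, 64.5 and 94.5 CPM in Mttp-IKO pools. Pool 3 fell inside the control range and the others below it. For Ces1g the log2 fold change was -0.52 ± 0.28 (SE, 95% interval -1.17 to 0.14, adjusted P = 0.317).

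Ces1e encodes egasyn, the partner that anchors β-glucuronidase in the endoplasmic reticulum. It measured 27.2, 30.2 and 28.2 CPM in control pools, against 12.8, 13.7 and 30.6 CPM in Mttp-IKO pools. The control pools were within 1.11-fold of each other, whereas Mttp-IKO pool 3 was 2.39 times pool 1. Ces1e had a log2 fold change of -0.59 ± 0.32 (SE, 95% interval -1.33 to 0.15, adjusted P = 0.316). Gusb, the gene of β-glucuronidase, named after its value was seen, had a log2 fold change of -0.52 (adjusted P = 0.247).

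Ces1c, the secreted plasma esterase, was the most abundant member per length and the steadiest in Mttp-IKO liver. It measured 951, 1556 and 1310 CPM in control pools, against 1282, 1367 and 1308 CPM in Mttp-IKO pools. All 3 Mttp-IKO pools fell inside the control range. The log2 fold change was 0.05 ± 0.22 (SE), with a 95% interval of -0.47 to 0.57 that leaves room for a difference in either direction (adjusted P = 0.914). Its sign changed when total counts were used (-0.12) or control pool 1 was left out (-0.14).

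The Ces3 genes, liver esterases whose own substrates are less well known, varied more among Mttp-IKO pools than any other members. Ces3a measured 355, 554 and 423 CPM in control pools, against 63.2, 113 and 446 CPM in Mttp-IKO pools. Pools 1 and 2 were at 0.142 and 0.254 of the control mean, and pool 3 was at 1.01 of it. For Ces3a the log2 fold change was -1.10 ± 0.64 (SE, 95% interval -2.56 to 0.36, adjusted P = 0.340). Ces3b measured 10.1, 31.4 and 20.4 CPM in control pools, against 5.96, 14.9 and 188 CPM in Mttp-IKO pools. Pool 3 was at 9.08 times the control mean, while pool 1 was below and pool 2 inside the control range. Ces3b had a log2 fold change of 1.75 ± 1.10 (SE, 95% interval -0.79 to 4.28, adjusted P = 0.379), and it was -0.98 without Mttp-IKO pool 3.

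Within the family, the Mttp-IKO pools also separated from each other. Measured against the control range, pool 1 had 1 member above, 2 within and 7 below, and pool 2 had 1 above, 3 within and 6 below. Pool 3 had 7 above, 3 within and none below. Over all genes tested, 33.2%, 36.3% and 38.2% were above the control range in pools 1, 2 and 3, and 33.8%, 35.4% and 40.9% were below. The median log2 ratio of the members to the control mean was -0.82 in pool 1, -0.52 in pool 2 and 0.15 in pool 3.

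**Figure D2:**
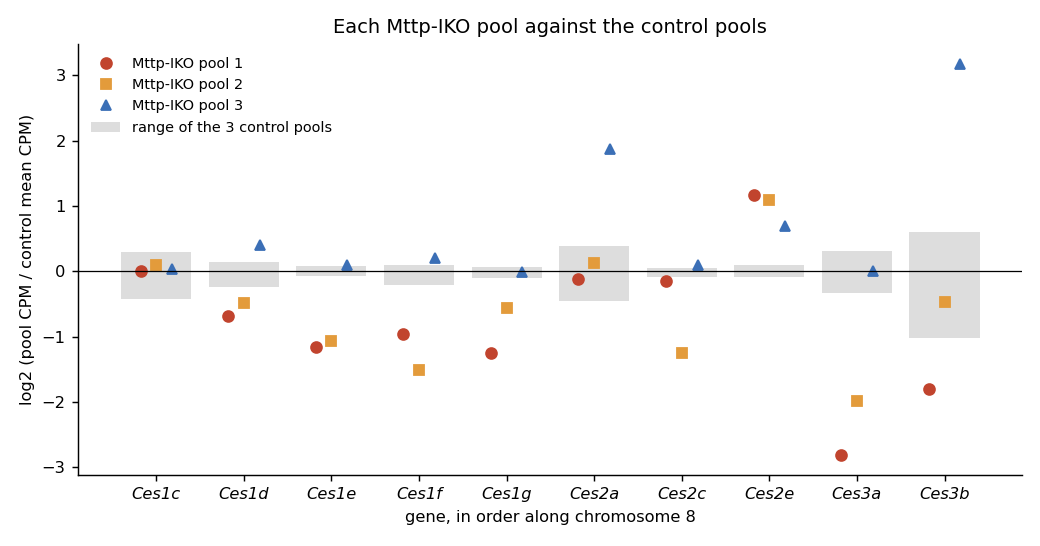
Log2 ratio of each Mttp-IKO pool to the mean of the control pools, in CPM, for each carboxylesterase, with the range of the 3 control pools in grey. Mttp-IKO pool 3 (blue triangles) stands at 3.18 for Ces3b and 1.87 for Ces2a, while pools 1 and 2 stand at -2.81 and -1.98 for Ces3a and at -1.16 and -1.06 for Ces1e.

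The highest Mttp-IKO pool exceeded the lowest by 1.07-fold for Ces1c to 31.4-fold for Ces3b, with a median of 2.46-fold over the members. For the 10976 genes with a mean log2 CPM of at least 2, the median was 1.44-fold and the 90th percentile 2.42-fold. That floor is under the level of every member, so these genes were not matched to the members in abundance. Of the 10 members, 5 exceeded that percentile. Among control pools the members' median was 1.27-fold, against 1.20-fold for all of these genes, and 2 members exceeded the 90th percentile of 1.71-fold. Mttp-IKO pool 3 also stood apart in its reads. Genes of small RNAs took 0.634% of its reads and 3.60% to 5.27% in the other 5 pools, and messages of 300 to 1000 bases took 1.70% against 3.62% to 3.84%. With each pool's trend of expression with gene length removed, log2 fold changes were 1.88 for Ces3b and -0.92 for Ces3a, and Ces2e was 1.02 (adjusted P = 0.0166).

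Without Mttp-IKO pool 3, an alternative in which its genotype keeps 2 pools, 3 members were lower and 1 higher. The lower genes were Ces1e (-1.11, adjusted P = 0.0126), Ces1f (-1.20, 0.0268) and Ces3a (-2.33, 0.0198), against 3.15% of 17854 genes. The higher gene was Ces2e (1.14, 0.0103), against 1.69%. Ces1g came to -0.86 (adjusted P = 0.0620) and Ces1d to -0.58 (0.0813). All 10 members are given with all 6 pools as the main result, since nothing in the labels sets pool 3 aside.

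**Figure D3:**
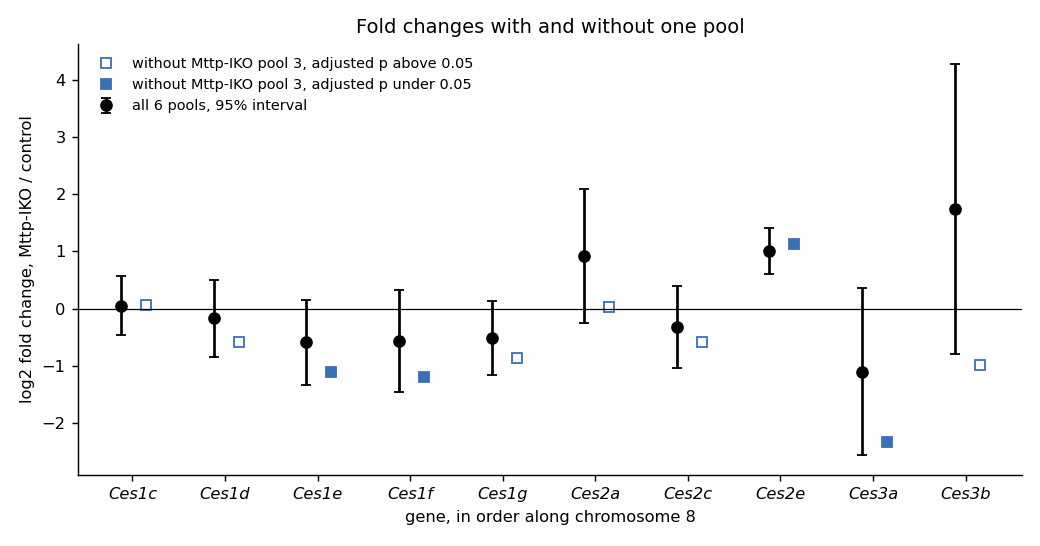
Log2 fold change of each carboxylesterase, Mttp-IKO over control, from all 6 pools with its 95% interval (black) and without Mttp-IKO pool 3 (blue squares, filled where the adjusted P was under 0.05). With all pools only the Ces2e interval of 0.60 to 1.41 comes from a called gene, and without pool 3 Ces3b moves from 1.75 to -0.98.

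Levels of different genes were compared per length, as RPKM, which divides reads by gene length and by total reads and has no TMM scaling. In control liver Ces1c led at 579 ± 115 RPKM (SD, n = 3), followed by Ces3a at 229 ± 42.9, Ces1d at 74.6 ± 7.95 and Ces1g at 42.3 ± 3.56 RPKM, with no overlap between neighbours in this order. Ces2e at 30.6 ± 1.66 and Ces1f at 25.7 ± 3.32 RPKM overlapped. Ces1e stood at 13.9 ± 0.26 RPKM. Ces3b (8.44 ± 4.06), Ces2a (7.91 ± 1.98) and Ces2c (7.57 ± 0.093 RPKM) overlapped and had no clear order. In Mttp-IKO liver Ces1c again led at 533 ± 5.40 RPKM, and Ces2e at 54.2 ± 9.62 RPKM came 4th by mean, where it had been 5th. From Ces3a (94.98 ± 96.2) down to Ces2c (5.40 ± 2.38 RPKM) neighbours overlapped, except Ces2e and Ces1g, at 44.1 to 63.3 and 16.4 to 37.3 RPKM.

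**Figure D4:**
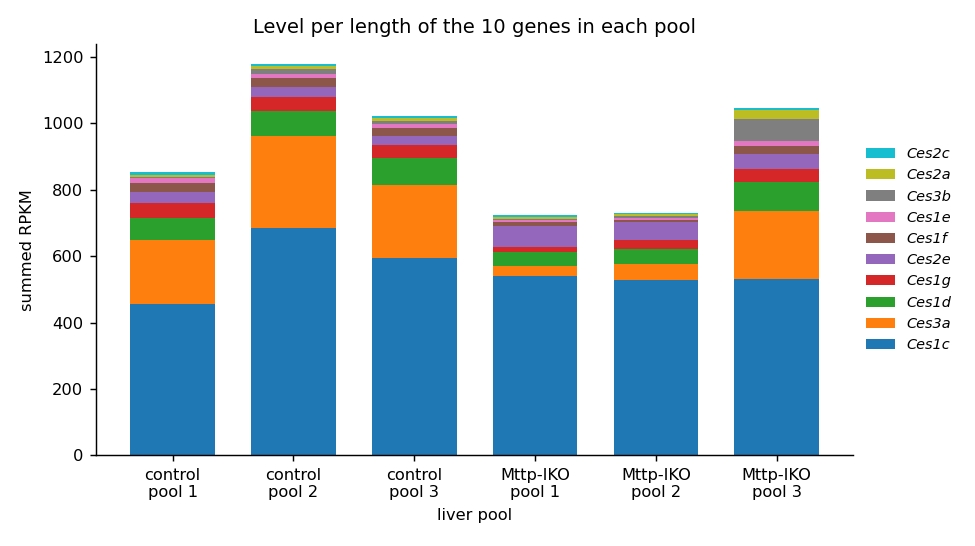
Summed RPKM of the 10 carboxylesterases in each liver pool, divided by gene and stacked in the order of the control means. The sums, which have no TMM scaling, are 853, 1180 and 1023 RPKM in control pools and 725, 731 and 1048 RPKM in Mttp-IKO pools. The Ces3a segment is narrow in Mttp-IKO pools 1 and 2.

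The 10 genes summed to 853, 1180 and 1023 RPKM in control pools and to 725, 731 and 1048 RPKM in Mttp-IKO pools. In TMM-scaled CPM they summed to 1771, 2648 and 2228 in control pools and to 1752, 1912 and 2586 in Mttp-IKO pools. On that scale only Mttp-IKO pool 1 was outside the control range, narrowly below it. Ces1c made up 53.4%, 58.0% and 58.2% of the RPKM sum in control pools, and 74.4%, 72.3% and 50.7% in Mttp-IKO pools. Ces3a gave 21.3% to 23.4% in control pools and 4.15%, 6.75% and 19.6% in Mttp-IKO pools. Without Ces1c the sums were 397 to 495 RPKM in control and 186, 203 and 517 RPKM in Mttp-IKO. The sum without Ces1c was below the control range in Mttp-IKO pools 1 and 2 and above it in pool 3, while both shares of pool 3 were just under the control range. The ratio of Ces3a to Ces3b RPKM was 43.8, 22.1 and 26.0 in control pools and 13.3, 9.48 and 2.98 in Mttp-IKO pools, so that every Mttp-IKO pool was lower. Ces3a was low in pools 1 and 2, whereas Ces3b was high in pool 3. As given above, the division of reads between these genes is uncertain. The ratio of Ces2e to Ces2a RPKM was 5.21, 3.13 and 3.78 in control and 9.34, 7.48 and 1.70 in Mttp-IKO, where pool 3 fell on the other side. With 3 pools a genotype, a two-sided exact permutation test of such a ratio cannot go below P = 0.1.

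Of the 10 remaining carboxylesterase genes in the table, 6 passed the filter on low counts. By edgeR 1 was higher and none lower, against 0.920% and 3.09% of all genes. In edgeR 2 genes, Ces4a and Ces2h, were under an unadjusted P of 0.05, against 3977 of all 17287 genes. DESeq2 and limma-voom called Ces4a alone, against 11.6% and 2.48% of all genes. The median log2 fold change of the 6 genes was -0.37. Ces4a, a divergent family member, measured 0.843, 0.832 and 0.968 CPM in control pools, against 3.87, 2.23 and 2.81 CPM in Mttp-IKO pools. All Mttp-IKO pools were above the controls. The log2 fold change was 1.75 ± 0.31 (SE, adjusted P = 0.0293). The call was lost without any single pool other than Mttp-IKO pool 3 (adjusted P of 0.0541 to 0.127), in fits that called 0.00% to 5.02% of all genes. Ces1b, with which Ces1c shared more of its 50-base windows than with any other gene, measured 58.1 to 84.6 CPM in control and 52.6 to 59.8 CPM in Mttp-IKO (-0.36, adjusted P = 0.257). Ces2g measured 57.4 to 86.1 and 74.0 to 88.7 CPM (0.22, 0.515). Ces2h (-1.61, 0.152), Ces2d-ps (-0.74, 0.414) and Ces1a (-0.37, 0.652) stayed near or under 1 CPM, and Ces1h, Ces2b, Ces2f and Ces5a had too few reads to be tested.

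Of 15 tested nuclear receptors and liver factors known to control carboxylesterases, 1 was higher and none lower, against 0.920% and 3.09% of all genes. Their median log2 fold change was 0.35. Nr0b2, which encodes the FXR-induced corepressor SHP, measured 25.1, 21.1 and 17.3 CPM in control pools, against 54.5, 45.8 and 33.1 CPM in Mttp-IKO pools. The Mttp-IKO pools were all above the controls. For Nr0b2 the log2 fold change was 1.07 ± 0.22 (SE, adjusted P = 0.0435), and it was not called by limma-voom (0.0555) or with total counts (0.0699). Nor was it called without any single pool other than Mttp-IKO pool 3 (0.0930 to 0.199), in fits that called 0.00% to 5.02% of all genes. DESeq2 called Nr0b2, Hnf4a and Foxa2, and limma-voom none, against 11.6% and 2.48% of all genes. The receptors that induce Ces2a had log2 fold changes of 0.40 for Nr1i2 (PXR, adjusted P = 0.171) and 0.69 for Nr1i3 (CAR, 0.225). Hnf4a, the hepatocyte factor named above, was at 564 to 686 CPM in control and 868 to 1318 CPM in Mttp-IKO (0.87, 0.0664), and it also stands in the hepatocyte marker list. Nr1h4, which encodes FXR itself, was at -0.04 (edgeR adjusted P = 0.931), and its pools overlapped. All of these genes but Nr0b2 were named after their values were seen.

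Among 24 other hepatic ester hydrolases tested, none passed the edgeR test, against 4.01% of all genes. Their median log2 fold change was 0.10. DESeq2 called Bche, Pnpla2 and Pnpla3, all higher, against 11.6% of all genes. By limma-voom none was called, against 2.48%. In edgeR 5 were under an unadjusted P of 0.05, against 3977 of all 17287 genes. The 5 genes, named after their values were seen, were Pnpla3 (1.22, adjusted P = 0.0809), Pnpla2, the lipid droplet triglyceride lipase (0.81, 0.140), butyrylcholinesterase Bche (0.64, 0.0943), the amide hydrolase Faah (0.45, 0.193) and Abhd12 (-0.56, 0.166). Of 8 genes for retention in, and folding within, the endoplasmic reticulum, none passed by edgeR, DESeq2 or limma-voom, and only Calr was under an unadjusted P of 0.05 (-0.54, adjusted P = 0.167). The KDEL receptor genes Kdelr1, Kdelr2 and Kdelr3, whose products return such proteins to the endoplasmic reticulum, also named after their values were seen, had log2 fold changes of -0.09, -0.02 and -0.42 with overlapping pools.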

How the data were processed

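Total liver RNA was depleted of ribosomal RNA (KAPA RiboErase) and sequenced as 6 pools, 3 per genotype. Per the labels and methods, the authors demultiplexed reads with bcl2fastq, aligned them with STAR 2.5.1a to the primary assembly of Ensembl release 76, which is GRCm38, and obtained gene counts from featureCounts 1.4.6-p5, keeping reads with a unique alignment in a single gene. The strand setting is not given in the sources used here. The deposited files hold raw read counts, CPM and RPKM for each pool. The deposited CPM and RPKM were recomputed from the counts to within 3.2e-10 and 5.1e-11. The RPKM values of the authors, on total reads, were used to compare levels between genes. They were also used for the sums, shares and ratios given for each pool, which were not tested.

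Counts were tested with edgeR 4.0.16 (R 4.3.3) using TMM factors, the filterByExpr defaults (minimum count 10, minimum total 15), the quasi-likelihood test without a block, and Benjamini-Hochberg adjustment over 17287 genes at 0.05, and the code was tested on simulated counts. CPM in the text are TMM-scaled. Alternatives used DESeq2 1.42.0, limma 3.58.1 with voom, other scalings and filters, a replicate block, and each pool left out. A count of 0 allows up to 3 reads, or 0.0828 to 0.119 CPM on total reads without TMM factors, and this covers counting error only. Nothing states which mice entered which pool, so P values measure the spread between pools. Pools of a genotype differed beyond sampling noise, with chi-square of 37.1 to 215 per gene, and none was merged. The replicate numbers of the titles did not pair the pools. The correlations of same-numbered pools were 0.14, 0.11 and 0.0070.

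Coding ends, identities and shared 50-base windows came from GENCODE M21 transcripts, and promoters from RefSeq (GRCm38.p6). All 10 members, the tested genes of the other carboxylesterases, genes past the threshold in the other lists (at most 4 a list) and Mttp are named, and others are said to be named after their values were seen. The members and lists were chosen with earlier results of these data known.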

Additional observations from a re-analysis of the deposited data

How the results depend on the processing

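The number of carboxylesterases called was 1, Ces2e, with DESeq2 size factors, upper-quartile scaling, total counts, the DESeq2 Wald test, limma-voom, robust dispersion, either other filter, protein-coding genes only, the length trend removed, a replicate block and a threshold of 0.1. It was 0 at a threshold of 0.01, where 5 of all genes remained called. Leaving out 1 pool gave 0 to 4 members, and over all genes these fits called between 0 (without Mttp-IKO pool 2, with 3221 genes at an unadjusted P under 0.05) and 892, against 694 with all pools. It was 0 without control pool 1, control pool 3, Mttp-IKO pool 1 or Mttp-IKO pool 2, and 4 without Mttp-IKO pool 3.

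Directions changed for 3 members, none of them called either way. Ces1c was -0.12 with total counts and -0.14 without control pool 1, Ces1d was 0.033 without Mttp-IKO pool 1, and Ces3b was -0.98 without Mttp-IKO pool 3. Leaving out pools gave -0.14 to 0.20 for Ces1c, -0.58 to 0.03 for Ces1d and -0.98 to 2.29 for Ces3b. Ces3b also came to 0.41 with limma-voom. The cause was not tested. Total counts moved the median of all genes to -0.17 and that of the members to -0.42, and Ces2e, at 0.82, stayed above it.

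With the replicate block 592 genes were called against 694 without it, Ces2e was 0.99 (adjusted P = 0.0406), Ces3a -1.61 and Ces3b 0.30. No member's call changed under the block. DESeq2 called 1995 of all genes and total counts 1019, and limma-voom called 428. Of 6 pools, 5 correlated best with the pool of their own number, which is a hint from the data and not the design. The settings for Ces4a and Nr0b2 were chosen after seeing the data.

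With 3 pools per genotype, the 95% intervals of the 9 members that were not called were 1.03 to 5.07 wide on the log2 scale. Differences inside each member's own interval were not resolved.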

Other observations

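Cyp2b10, the cytochrome P450 gene used as the standard readout of CAR activity, was chosen after its values were seen. It measured 0.843, 2.30 and 1.97 CPM in control pools, against 5.35, 2.23 and 41.8 CPM in Mttp-IKO pools. The single high pool was Mttp-IKO pool 3, in which Ces2a (64.8 CPM) and Ces3b (188 CPM) were also above every other pool. So were Ces1d, Ces1e, Ces1f and Ces2c, by less. The share of all genes above every other pool in pool 3 was not computed. Against the control range alone, 7 of 10 members and 38.2% of all genes tested were above in that pool. Nr1i3, which encodes CAR, measured 175, 204 and 102 CPM in the same Mttp-IKO pools, where pool 3 was the lowest. Onecut1, a hepatocyte factor likewise chosen after its values were seen, measured 31.3, 55.6 and 147 CPM in Mttp-IKO pools. Control pools were at 37.6 to 56.1 CPM, so that Mttp-IKO pool 3 was again above the rest. That pool also differed in its reads, with 0.634% on genes of small RNAs against 3.60% to 5.27% in the other pools. The cause of its high values was not tested.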
